A study of Mus musculus with 16 samples.

Results

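Broad H3K4me3 domains are stretches of chromatin in which nucleosome after nucleosome carries the trimethylated lysine 4 of histone H3. Here they are the regions of chromosomes 1 to 19 that held a peak in the lists of all 3 mouse lines studied and that were at least 4000 bp wide. Peaks of the 3 lists that shared at least 1 bp were merged into regions, and the members were selected on 2 measured values, the presence of a peak in every list and the merged width (largest end minus smallest start). This gave 799 broad regions, out of 59204 merged regions in all and 34977 regions with a peak in every list. They were 2.28% of the shared regions (95% Wilson interval 2.13 to 2.45) and held 3.99 Mb, or 6.76% of the base pairs of those regions.

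H3K4me3 is the mark of active and poised promoters. It is placed there by the SETD1 and MLL families of methyltransferases, usually as a narrow block on the nucleosomes beside the transcription start. Domains that stretch over several kilobases are known from many tissues, where they often lie over genes that define the cell type and over genes of developmental regulators. In meiotic germ cells the methyltransferase PRDM9 adds the same mark away from promoters, on nucleosomes around the DNA motif read by its zinc-finger array, and meiotic recombination starts there.

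The data were H3K4me3 ChIP-seq of whole testis from mice labelled as 13 days old, an age at which the first spermatocytes are in meiotic prophase. The B6-TgWT line (C57BL/6J-Tg(RP23-159N6*)43Bdm) carries a transgene with an active PRDM9, and the B6-TgYF line (C57BL/6JRj-Tg(RP23-159N6*)23Bdm) a transgene whose PRDM9 is mutated in the catalytic domain, as is known of the study. The names of both transgenic lists carry the term cast, so the transgenic PRDM9 may be of another allele than that of B6, which was not tested. The B6 line (C57BL/6JOlaHsd) has no transgene. No Prdm9 deletion is named in the labels of these 3 lines, and the endogenous gene was taken to be present in all, which the labels do not state. Each line had 2 H3K4me3 libraries and 1 input, and the authors gave 1 peak list per line. The transgenes are 1 founder line each and the 3 lines are of different C57BL/6 substrains, so line, substrain and transgene cannot be told apart. With 1 list per line there is no spread between replicates for any value that follows, and no test of a difference between lines was possible. Whole testis mixes germ cells with Sertoli and interstitial cells, and a wider domain cannot be told apart from a larger share of the cells that carry it.

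The lists held 46631 peaks in B6-TgWT, 41558 in B6-TgYF and 50013 in B6 on chromosomes 1 to 19. Single peaks of at least 4000 bp were rare in each, with 367 (0.787%) in B6-TgWT, 492 (1.18%) in B6-TgYF and 694 (1.39%) in B6. Read depth is unknown, since the lists hold no read counts.

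Nearly every wide region was shared. Of the 801 merged regions of at least 4000 bp, 799 (99.8%) had a peak in all 3 lists, while 59.1% of all merged regions did. The other 2 were held by the B6-TgWT list alone, and no region of the other classes reached 4000 bp. The widest region of those classes was 3658 bp wide and had peaks in B6-TgYF and B6. A wide region has more room to touch a peak of another list, so part of this share follows from the merging.

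The merged width of the broad regions had a median of 4630 bp, with quartiles of 4269 and 5322 bp and a maximum of 12478 bp. The other 34178 shared regions had a median of 1463 bp. Most members lay close to the limit. The class of 4000 to under 4500 bp held 344 (43.1%), that of 4500 to under 5000 bp held 161, that of 5000 to under 6000 bp held 188, that of 6000 to under 8000 bp held 86, and 20 (2.50%) were 8000 bp or wider. No gap in the distribution separated broad from narrower regions. The members nearest to the limit were chr10:79577144-79581143 (4000 bp), chr12:77469218-77473218 (4001 bp) and chr17:27588589-27592592 (4004 bp). The shared regions just below it were chr10:72559146-72563143 (3998 bp), chr14:66914729-66918725 (3997 bp) and chr6:117116513-117120507 (3995 bp).

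**Figure D1:**
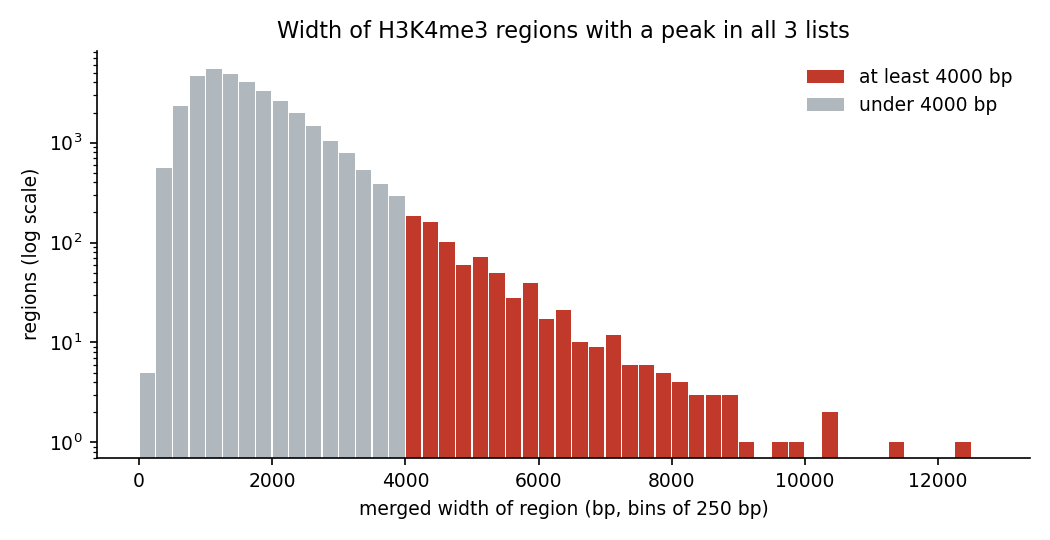
Number of shared H3K4me3 regions (log axis) by merged width in bins of 250 bp, with the 799 broad regions in red and the 34178 others in grey. The counts fall off smoothly through 4000 bp, out to a single region of 12478 bp.

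The domains were not equally wide in the 3 lists. The own span of a list, from the start of its first peak to the end of its last peak in the region, had a median of 4197 bp in B6-TgWT, 4336 bp in B6-TgYF and 4534 bp in B6. It was at least 4000 bp in 512 members (64.1%) for B6-TgWT, 590 (73.8%) for B6-TgYF and 726 (90.9%) for B6. All 3 lists reached 4000 bp on their own in 469 members (58.7%). The B6 list alone did so in 137 (17.1%), against 28 for the B6-TgWT list alone and 14 for the B6-TgYF list alone. Both B6-TgYF and B6 reached it in 106, and no list did in 30, where staggered peaks made up the width. The membership therefore leaned on the B6 list, whose file name carries the number 12 where the labels give 13 days. Merging the B6-TgWT and B6-TgYF lists without it left 569 broad regions, all of them overlapping one of the 799. That overlap was nearly fixed by the merging, since adding a list can only widen a region.

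The B6 list had the widest span in 553 members (69.2%), the B6-TgYF list in 150 and the B6-TgWT list in 92, with 4 ties. The B6-TgWT list had the narrowest span in 534 (66.8%), B6-TgYF in 221 and B6 in 43. The order of the lists was the same in the narrower shared regions, where B6-TgWT was the widest in 15.9%, B6-TgYF in 24.7% and B6 in 59.0%. There B6-TgWT was the narrowest in 57.2%, B6-TgYF in 31.1% and B6 in 11.3%. The ranking of the members by span was partly kept between lists. Spearman's rho over the 799 regions was 0.72 for B6-TgWT and B6, 0.86 for B6-TgYF and B6, and 0.80 for B6-TgWT and B6-TgYF, against 0.93, 0.96 and 0.94 over the other shared regions. Members share a range cut off by the width rule, and the lists share the genome's mappability, so these values only describe the lists.

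Continuity also differed. A broad region was a single unbroken peak in 564 of 799 members (70.6%, interval 67.3 to 73.6) in the B6-TgWT list, in 645 (80.7%, interval 77.8 to 83.3) in the B6-TgYF list and in 745 (93.2%, interval 91.3 to 94.8) in the B6 list. It was unbroken in every list in 514 (64.3%, interval 60.9 to 67.6). These intervals cover counting error over regions only, regions are not replicates of a line, and no difference between lines was tested. In the shared regions of 3000 to under 4000 bp, the next class down, the corresponding share was 82.2%, and in all other shared regions 95.5%. By list, the shares of that next class were 86.0% in B6-TgWT, 89.95% in B6-TgYF and 97.55% in B6. Those of all other shared regions were 96.9%, 97.4% and 99.5%. The lists thus had the same order outside the broad regions. A wider region can hold more peaks, so the order of these classes is partly set by width.

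**Figure D2:**
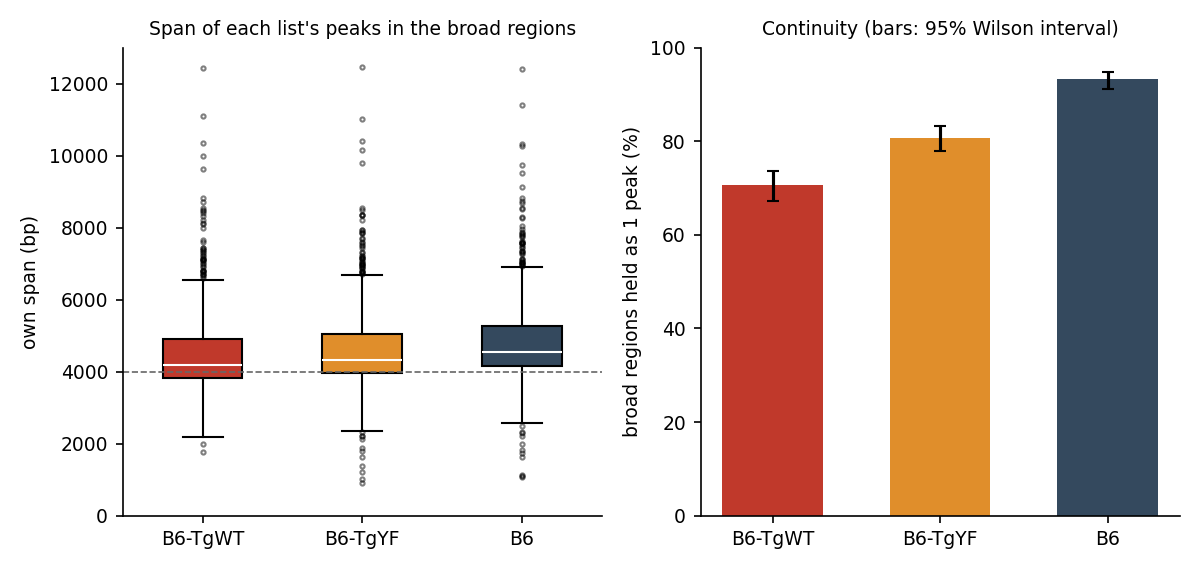
Left, own span in bp of each list in the 799 broad regions (box: quartiles and median, whiskers: 1.5 times the interquartile range, points: single regions beyond, dashed line: 4000 bp). Right, percent of the broad regions held as 1 peak with 95% Wilson intervals, which cover counting error over regions and no spread between replicates. Medians are 4197 bp in B6-TgWT, 4336 bp in B6-TgYF and 4534 bp in B6, and the share held as 1 peak is 70.6%, 80.7% and 93.2% in the same order.

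The breaks were mostly short. Inside the broad regions the B6-TgWT list had 273 gaps between neighbouring peaks with a median of 93 bp, the B6-TgYF list 177 with a median of 79 bp, and the B6 list 54 with a median of 93.5 bp. The shortest gap was 51 bp in each list and the longest 2797, 2122 and 2058 bp in that order. A single B6 peak ran across 253 (92.7%) of the gaps of B6-TgWT and across 166 (93.8%) of those of B6-TgYF. The weaker of the peaks beside a gap had a median fold enrichment of 7.0 in B6-TgWT, 7.05 in B6-TgYF and 7.73 in B6, against 16.59, 19.43 and 21.74 for the stronger. A gap can lie inside a merged region only where peaks of another list cover it, so such crossings were nearly fixed by the merging. A single peak of some other list ran across 269 of the B6-TgWT gaps, 175 of the B6-TgYF gaps and 53 of the B6 gaps. B6-TgYF peaks ran across 165 of the B6-TgWT gaps and 42 of the B6 gaps. B6-TgWT peaks ran across 50 of the B6-TgYF gaps and 26 of the B6 gaps.

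Broken members were somewhat wider and weaker than unbroken ones. The 285 members with several peaks in at least 1 list had a median width of 4899 bp, and the 514 unbroken ones 4537 bp. The median fold enrichment of the broken members was 17.46 in B6-TgWT, 20.25 in B6-TgYF and 23.36 in B6, and that of the unbroken ones 21.02, 24.98 and 27.58. Several peaks were found in the B6-TgWT list alone in 101 members, in B6-TgWT and B6-TgYF in 97, in B6-TgYF alone in 33 and in B6 alone in 11. The share of members unbroken in every list was 72.1% from 4000 to under 4500 bp and 46.5% from 6000 to under 8000 bp.

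The widest domain of the data lay at chr2:104962892-104975369 (mm9), 12478 bp. Its span was 12440 bp in B6-TgWT, 12476 bp in B6-TgYF and 12421 bp in B6, and its strongest fold enrichment 24.12, 26.54 and 26.78 in the same order. It was 4 peaks in B6-TgWT and 3 in B6-TgYF, and a single peak of 12421 bp in B6. The outer limits of the 3 lists were nearly the same, while the number of breaks inside differed. The second, chr5:143574576-143585974 (11399 bp), was unbroken everywhere, with peaks of 11096 bp in B6-TgWT, 11008 bp in B6-TgYF and 11399 bp in B6 and folds of 27.53, 29.18 and 34.78. The third, chr15:35222600-35233006 (10407 bp), had 4 peaks in B6-TgWT, 2 in B6-TgYF and 1 in B6, with folds of 14.79, 11.64 and 25.87.

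The others of the 10 widest regions showed 2 kinds of difference, breaks and missing ends. At chr11:85642037-85652318 (10282 bp) every list had 2 peaks, while chr11:74978072-74987944 (9873 bp) was 1 peak in each, of 9643, 9796 and 9730 bp in B6-TgWT, B6-TgYF and B6. At chr8:11001904-11011421 the span was 6781 bp in B6-TgWT, 7593 bp in B6-TgYF and 9518 bp in B6. At chr7:77499251-77508050 it was 5563 bp in B6-TgWT, 5512 bp in B6-TgYF and 8743 bp in B6. In the chromosome 8 domain the transgenic spans ended inside the B6 peak at both ends, and in the chromosome 7 domain at the lower-coordinate end. The rest were chr18:11047839-11057002 (8319, 8343 and 9142 bp in B6-TgWT, B6-TgYF and B6), chr11:63732178-63741016 (8835, 7151 and 8822 bp) and chr2:9798120-9806876 (8719, 8548 and 8690 bp). The region chr11:63732178-63741016 stood apart in that B6-TgWT held it as 1 peak and B6 as 2.

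**Figure D3:**
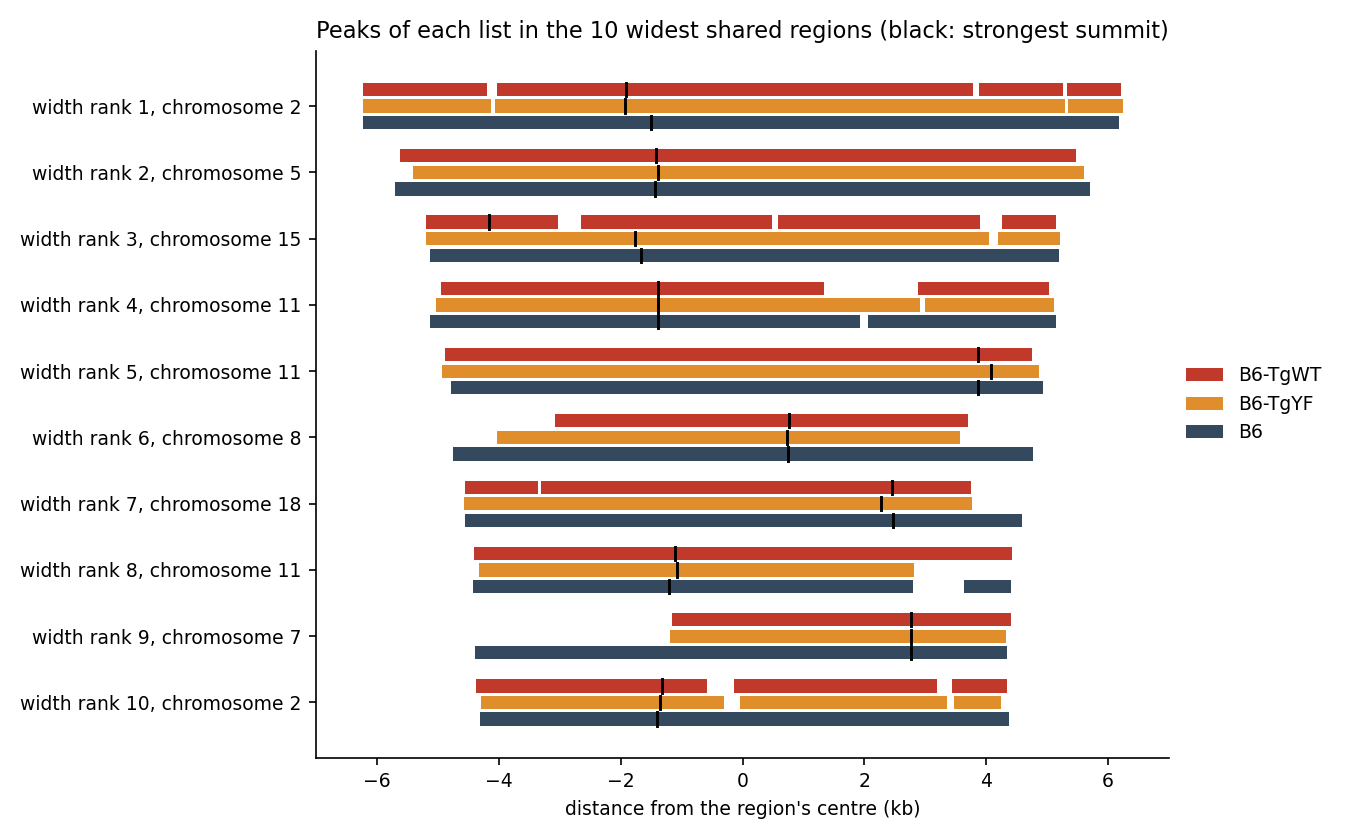
Peaks of the B6-TgWT (red), B6-TgYF (orange) and B6 (blue) lists in the 10 widest shared regions, drawn to scale as distance in kb from the region's centre. White space between bars of 1 colour is a gap between peaks, and a black tick is the summit of that list's strongest peak. In the region of rank 9 both transgenic lists lack the left end, with spans of 5563 and 5512 bp against 8743 bp in B6.

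The members with the most peaks over the 3 lists were chr6:83135661-83140535 and chr11:44429737-44435050 beside the widest region of chromosome 2. The first had 4 peaks in B6-TgWT, 3 in B6-TgYF and 2 in B6 within 4875 bp, with strongest folds of 6.76, 6.49 and 8.45. The second had 4, 3 and 1 peaks within 5314 bp, with folds of 12.54, 12.12 and 9.28. Their mean percentiles of fold enrichment, 48.9 and 65.1, were below the median of the members.

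Most broad domains ranked high in their lists. Strength was taken as the percentile, within its list, of the fold enrichment over background that the authors' caller gave the strongest peak of a region. Its median over the members was 84.6 in B6-TgWT, 83.5 in B6-TgYF and 86.2 in B6, against 57.7, 56.5 and 64.2 over the other shared regions. The fold enrichment itself had a median of 19.83 in B6-TgWT (range 3.43 to 34.84), 23.40 in B6-TgYF (4.80 to 40.43) and 26.15 in B6 (4.90 to 40.44). In the upper 50% of their list lay 784 of the 799 members in B6-TgWT, 791 in B6-TgYF and 797 in B6. The shares of all other shared regions were 57.4%, 57.7% and 70.4% in the same order. In the next class of 3000 to under 4000 bp they were 97.2%, 97.15% and 98.45%, so this high rank was not particular to the broad regions. The median folds of that class were 21.50, 24.39 and 27.10 in the same order, all above those of the broad regions. The strongest peak of the B6-TgYF list lay in a broad region, chr17:80459392-80464108 (4717 bp), with a fold of 26.36 in B6-TgWT, 40.43 in B6-TgYF and 24.60 in B6. Height and width come from the same peaks, and nothing more is read from these values.

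When the shared regions were sorted into deciles by the mean percentile over the 3 lists, broad regions made up 0 of 3497 in the weakest decile and at most 0.229% of each of the 4 next ones. The share was 1.32% in decile 6, 4.03% in decile 7, 5.46% in decile 8, 6.12% in decile 9 and 5.46% (interval 4.76 to 6.26) in decile 10. The median width of all shared regions went up over the same steps, to 2438 bp in decile 10. The intervals of the 3 upper deciles overlapped. Of the 350 regions in the top 1% by mean percentile, 24 (6.86%) were broad, against 2.28% of all shared regions. The intervals cover counting error over regions only, and regions are not replicates.

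**Figure D4:**
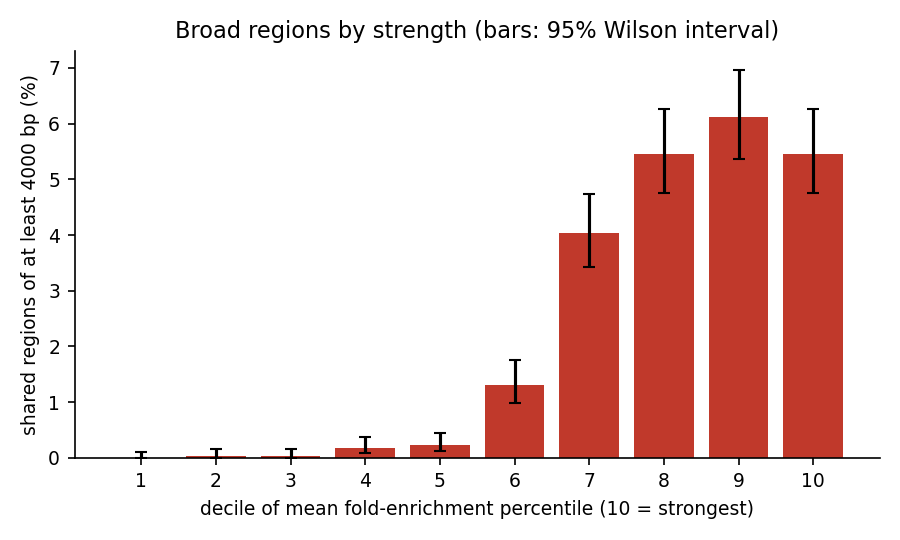
Percent of shared regions that are at least 4000 bp wide, by decile of the mean fold-enrichment percentile over the 3 lists (10 is the strongest), with 95% Wilson intervals. The share is 0 in the weakest decile, 4.03% in decile 7, and between 5.46% and 6.12% in deciles 8 to 10.

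The 5 members with the highest mean percentile over the 3 lists were all under 4500 bp wide. They were chr14:122503387-122507846, with folds of 34.84 in B6-TgWT, 37.71 in B6-TgYF and 39.59 in B6, then chr6:140570907-140574910 (33.80, 37.70 and 38.60), chr11:116711808-116716279 (32.21, 36.71 and 38.97), chr8:11632791-11637167 (31.98, 36.87 and 39.22) and chr2:179905330-179909572 (32.33, 34.64 and 38.31). The lowest mean percentile was that of chr17:27588589-27592592, with folds of 3.43 in B6-TgWT, 5.62 in B6-TgYF and 8.83 in B6. It was followed by chr5:106892555-106896846 (6.22, 4.80 and 4.90) and chr12:72008625-72012630 (4.62, 8.04 and 8.81). Of the weakest, the region of chromosome 17 owed its width to B6, with spans of 2179 bp in B6-TgWT, 2352 bp in B6-TgYF and 4004 bp in B6. The region of chromosome 5 was over 4000 bp in all 3 lists, with 4186, 4230 and 4108 bp, and so was a low, wide domain in each.

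Fold enrichment had no single direction over the width classes of the members. Its median in the 344 members of 4000 to under 4500 bp was 20.83 in B6-TgWT, 25.02 in B6-TgYF and 26.98 in B6. In the class of 4500 to under 5000 bp it was 19.19, 22.94 and 25.80 in the same order, and in that of 5000 to under 6000 bp 19.96, 22.71 and 27.44. The 86 members of 6000 to under 8000 bp had the lowest medians, 17.70, 21.46 and 23.26, and the 20 of 8000 bp or more had 18.15, 23.32 and 25.09. In B6 the highest of these medians was thus that of 5000 to under 6000 bp, and in both transgenic lists that of the narrowest class. Ranking by fold enrichment was partly kept between the lists. Spearman's rho over the 799 members was 0.71 for B6-TgWT and B6, 0.72 for B6-TgYF and B6 and 0.80 for the transgenic pair, against 0.89, 0.91 and 0.90 over the other shared regions. The members cover a narrower range, with B6-TgWT percentile quartiles of 77.7 and 91.8, against 31.1 and 80.4 for the others. The values of rho therefore only describe the lists.

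The next comparison asks whether a domain's span or rank differed between the line with the active transgene, or with the mutant one, and B6. A span was called different when it was at least 25% wider or at least 20% narrower than that of the other list. In B6-TgWT against B6, 125 members (15.6%, interval 13.3 to 18.3) were called narrower and 24 (3.0%) wider, while over all shared regions 17.6% were narrower and 2.52% wider. In B6-TgYF against B6, 55 members (6.88%) were narrower and 1 (0.125%) wider, against 9.8% and 1.5% over all. In B6-TgWT against B6-TgYF, 57 members (7.13%) were narrower and 26 (3.25%) wider, against 10.5% and 4.91% over all. The merged width that chose the members is built from these spans, so the counts are descriptions. The shares of narrower calls in the 3 pairs were near or below the background, and the narrower spans of the transgenic lists were a feature of all shared regions.

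The median span ratio of the members was 0.94 for B6-TgWT over B6, 0.97 for B6-TgYF over B6 and 0.97 for B6-TgWT over B6-TgYF. All shared regions gave 0.93, 0.96 and 0.97. In base pairs, the median difference of the members from B6 was -276 bp in B6-TgWT and -128 bp in B6-TgYF. It was -101 and -56 bp over all shared regions, and -232 and -141 bp in the class of 3000 to under 4000 bp. Set beside other shared regions of the same strength decile, the share called narrower than B6 went both ways. For B6-TgWT it was 6.52% of the 46 members in decile 6, against 13.4% of the others there, and 9.93% of 141 in decile 7, against 10.7%. It was 16.8% in decile 8, 14.0% in decile 9 and 21.5% in decile 10, against 10.04%, 9.99% and 7.65% of the others. For B6-TgYF the shares of the members in deciles 6 to 10 were 0, 4.96%, 6.81%, 6.07% and 8.90%, against 6.92%, 5.96%, 4.29%, 3.87% and 3.6% of the others. In both lines the share was thus below that of the others in deciles 6 and 7 and above it in deciles 8, 9 and 10. The lower deciles held at most 8 members each. A region with a wide span in any list can enter by the width rule, and this split was made after the values were seen.

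The rank of a member within its list was lower in the transgenic lines less often than over all shared regions. A difference of at least 10 percentile points was called. In B6-TgWT against B6, 59 members (7.38%) were called higher and 88 (11.01%) lower, against 7.84% and 36.1% over all shared regions. In B6-TgYF against B6, 42 members (5.26%) were higher and 114 (14.3%) lower, against 6.59% and 35.6%. In B6-TgWT against B6-TgYF, 73 members (9.14%) were higher and 52 (6.51%) lower, against 17% and 19%. Most members sit near the upper end of the lists, where a percentile has little room to move, and the next class down gave 8.35% higher and 12.1% lower for B6-TgWT against B6. The median difference over the members was -2.03 points for B6-TgWT minus B6 and -2.84 points for B6-TgYF minus B6. Over all shared regions it was -5.29 and -6.30 points, and in the next class down -1.58 and -2.83 points, in the same order.

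In most members the edges of a transgenic span lay close to those of B6. With B6-TgWT set against B6, both edges were within 500 bp in 542 members (67.8%), against 94.5% of the other shared regions. The B6-TgWT span ended more than 500 bp inside the B6 span at 1 edge only in 215 members (26.9%) and at both edges in 9 (1.13%), against 4.73% and 0.0772% of all shared regions. For B6-TgYF both edges were within 500 bp in 678 (84.9%), against 97.5% of the other shared regions. Its span fell short at 1 edge only in 114 (14.3%) and at both in 2 (0.25%), against 2.64% and 0.0172% of all shared regions. Among shortfalls over 500 bp, those at 1 edge thus outnumbered those at both. The next class of 3000 to under 4000 bp had shortfalls at 1 edge in 18.6% for B6-TgWT and 9.75% for B6-TgYF. A fixed distance of 500 bp is a smaller part of a wider region, so these shares are partly set by width.

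The reverse, a transgenic span reaching past B6, was seen more in B6-TgWT. Its span went more than 500 bp beyond a B6 edge in 35 members (4.38%), while B6-TgYF did so in 6 (0.751%), against 1.3% and 0.174% of all shared regions. The shares were 4.25% and 0.65% in the class of 3000 to under 4000 bp, and 1.23% and 0.161% in all other shared regions, so B6-TgWT had the higher share in each width class. The B6-TgWT span was at least 25% wider than both other spans in 23 members (2.88%, interval 1.93 to 4.28), the B6-TgYF span in 0 of 799 (interval up to 0.478%) and the B6 span in 46 (5.76%). Over all shared regions the shares were 1.92% for B6-TgWT, 0.858% for B6-TgYF and 5.8% for B6, and in the class of 3000 to under 4000 bp 3.4%, 0.25% and 4.55%. The B6 share was thus at the background, and the B6-TgWT share lay between those of all shared regions and of the next class. In 19 of the 23 the wide B6-TgWT span was 1 unbroken peak. That held in 60 of 68 such regions in the class of 3000 to under 4000 bp and in 625 of 649 in all other shared regions, so it was not particular to the members.

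**Figure D5:**
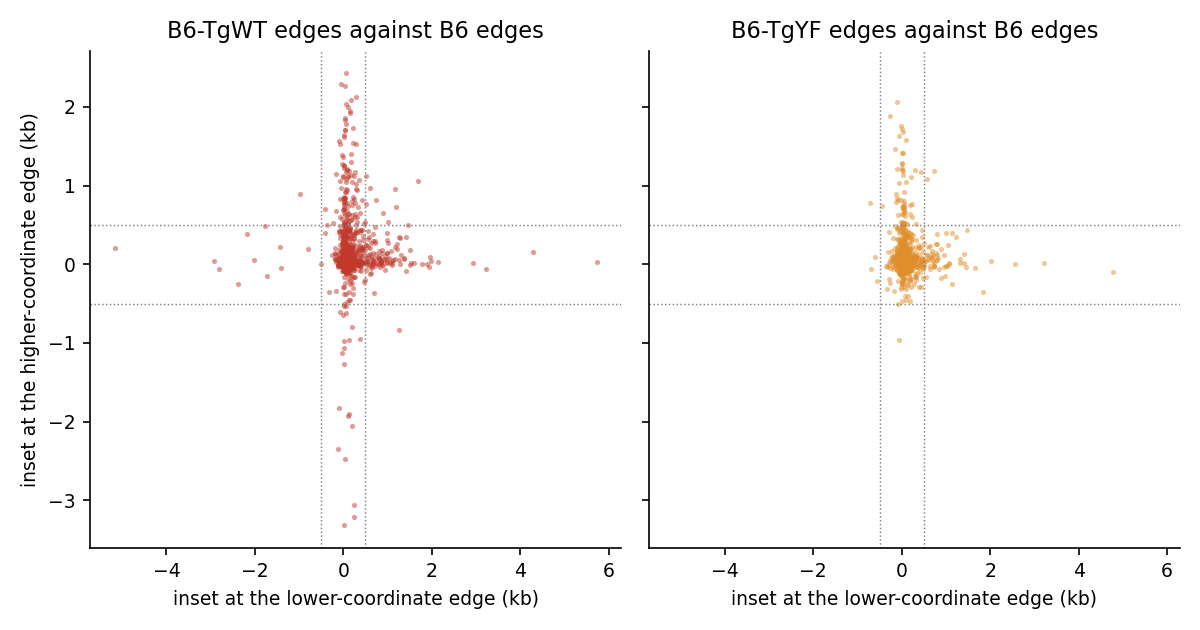
Inset in kb of the transgenic span from the B6 span at the lower-coordinate edge (horizontal axis) and at the higher-coordinate edge (vertical axis) in the 799 broad regions, for B6-TgWT (left) and B6-TgYF (right). Positive values lie inside the B6 span, negative ones beyond it, and dotted lines mark 500 bp. Most points lie near the origin and others spread along the axes, as 1 edge only fell short in 215 members for B6-TgWT and in 114 for B6-TgYF, and an edge lies more than 500 bp beyond B6 in 35 and 6.

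The domains with the widest B6-TgWT span relative to B6 were 3 that the other lists held as narrow regions. At chr12:103899874-103906796 the span was 6721 bp in B6-TgWT, 1366 bp in B6-TgYF and 1752 bp in B6, with folds of 8.34, 5.66 and 10.13. At chr2:162821340-162825362 it was 3984 bp in B6-TgWT, 1009 bp in B6-TgYF and 1096 bp in B6, with folds of 10.54, 12.95 and 20.47. At chr11:33620533-33624659 it was 3888 bp in B6-TgWT, 904 bp in B6-TgYF and 1072 bp in B6, with folds of 9.56, 5.09 and 8.97. All 3 were single peaks in every list, and the B6-TgYF list, that of the catalytic mutant, had the narrowest span of each. The summit stayed within 26 bp over the lists at the chromosome 2 domain, while it lay 2224 bp apart over the lists at the chromosome 12 domain. The B6-TgWT peak ran past the others on the lower-coordinate side at chromosomes 12 and 2 and on the other side at chromosome 11.

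The smallest B6-TgWT spans relative to B6 were at chr18:61818663-61826292 (1767 bp in B6-TgWT, 2847 bp in B6-TgYF and 7531 bp in B6), chr7:108074507-108082019 (3035, 6050 and 7475 bp) and chr16:77499572-77504301 (2248, 4414 and 4730 bp). The chromosome 18 domain was also the one with the smallest B6-TgYF span relative to B6. It was followed there by chr4:133304244-133309945 (2748 bp in B6-TgWT, 3126 bp in B6-TgYF and 5702 bp in B6) and chr7:121257311-121262072 (2703, 2698 and 4762 bp). Both of these were strong, with folds of 30.00, 32.08 and 36.40 at chromosome 4 and 28.27, 33.24 and 35.74 at chromosome 7. In both, the 2 transgenic spans were short and the fold enrichment was high in all 3 lists.

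The domains with the widest B6-TgYF span relative to B6 had span ratios of 1.28, 1.21 and 1.20. The first was chr9:57349281-57353984, with 4613 bp in B6-TgWT, 4685 bp in B6-TgYF and 3655 bp in B6. The next were chr6:86615861-86620231 (3744, 4371 and 3625 bp) and chr18:80908174-80912769 (3646, 4596 and 3829 bp). The first of them was at least 25% wider than in B6, the only such call for B6-TgYF, and there the B6-TgWT span was nearly as wide.

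The strongest summit of a broad domain lay at nearly the same base in the 3 lists. The median distance was 36 bp between B6-TgWT and B6, 31 bp between B6-TgYF and B6 and 40 bp between B6-TgWT and B6-TgYF. All 3 summits lay within 200 bp in 577 members (72.2%, interval 69.0 to 75.2) and spread over more than 1000 bp in 78 (9.76%). In other shared regions the shares were 85.2% and 0.711%, and in the class of 3000 to under 4000 bp 78.0% and 5.50%, with less room for summits to part in a narrower region. Summits over 1000 bp apart were found in 39 of the 514 unbroken members (7.59%) and in 39 of the 285 broken ones (13.7%), so some continuous domains had their highest point at different places in different lists.

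The summit was off-centre in many broad domains. Its median distance to the nearer edge of the merged region was 33.9% of the width in B6-TgWT, 34.0% in B6-TgYF and 34.0% in B6, against 40.3% in each list over the other shared regions. In the outer 20% at either end lay the summit of 99 members (12.4%) in B6-TgWT, 99 in B6-TgYF and 94 (11.8%) in B6, against 3.10%, 3.05% and 3.28% of the other shared regions. The class of 3000 to under 4000 bp gave 5.40% in each list. In the 9873 bp domain of chromosome 11, the summits lay 8796 bp from the start in B6-TgWT, 9014 bp in B6-TgYF and 8792 bp in B6, near its far end in every list. Strand and gene direction were not used here, so the longer side cannot be called upstream or downstream.

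Broad domains were found on all 19 autosomes. Chromosome 11 had the most, 77 of its 2552 shared regions (3.02%, interval 2.42 to 3.75), followed by chromosome 2 with 67 of 2776 (2.41%). The share of shared regions that were broad went from 1.55% (interval 1.06 to 2.26) on chromosome 13 and 1.60% on chromosome 10 to 3.01% (interval 2.15 to 4.19) on chromosome 19 and 3.02% on chromosome 11. The interval of chromosome 11 lay above those of chromosomes 3, 10 and 13, and no other pair of chromosomes had intervals apart.

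Around the domains, other shared regions were close. A further shared region lay within 5 kb of 282 members (35.3%, interval 32.1 to 38.7), of 26.6% of the regions of 3000 to under 4000 bp and of 28.4% of all other shared regions. For 10 kb the shares were 48.3% (interval 44.9 to 51.8), 40.8% and 45.3% (interval 44.8 to 45.8). There the interval of the members overlapped that of all other shared regions. The median distance to the nearest one was 10.7 kb for the members and 14.1 and 11.7 kb for these 2 classes. Another broad domain lay within 10 kb of 28 members (3.50%, interval 2.44 to 5.02), against 2.65% and 1.83%. Within 100 kb the shares were 14.5%, 13.8% and 13.4%, with overlapping intervals.

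Most domains stood alone, and a few formed short runs. With members up to 100 kb apart joined, 683 were alone, 46 runs had 2 and 8 runs had 3. The tightest run of 3 covered 37.6 kb at chr2:74517141-74554695. The others lay at chr2:174108856-174157738, chr4:109646474-109696509, chr8:87499524-87562798, chr7:25963251-26037296, chr15:98633748-98729576, chr3:94963238-95088979 and chr8:11475773-11637167, the last of 161 kb. The run of chr8:11475773-11637167 ends in chr8:11632791-11637167, described above.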

How the data were processed

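The authors deposited 1 peak list per line for H3K4me3 ChIP-seq, named in the labels of both libraries and the input. Per the submitters' processing notes, the tools were MACS2, BWA, Bowtie2 and CASAVA (versions and roles not stated), on mm9. Neither the way the libraries were combined nor the peak cutoff is known from these sources. The lists have 10 columns without a header and were read in MACS order. Fold enrichment as deposited is the ratio of signal over background, the deposited score is 10 times −log10 p, truncated, and the −log10 p and −log10 q are the authors' values too. These values are used to describe, rank or filter peaks within a list, and folds of separate lists show no change.

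Peaks sharing at least 1 bp were merged on chromosomes 1 to 19, and percentiles were taken within each list. Coordinates are mm9, counted from 1. Named regions were the 10 widest members, those highest and lowest in mean percentile, those with extreme span ratios to B6, those with the most peaks and those beside the 4000 bp limit. The members and all lists were chosen with earlier results of these data known. Edges, gaps, runs and width classes were added after the plan. Merging and the width rule were tested on simulated data. The tools were matplotlib 3.10.9, scipy 1.17.1, pandas 2.3.3 and numpy 2.4.6 under Python 3.11.15. The gene and promoter tables at hand are of GRCm38, whose last gene on chromosome 1 ends at 195.291 Mb, while the last peak there ends at 197.134 Mb. So no domain was assigned to a gene or sequence, and the planned gene lists and sequence measures were not computed. The 7 DMC1 libraries were not analysed here.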

Additional observations from a re-analysis of the deposited data

Results flagged for a closer look

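Chromosome X was outside the rule that chose the domains, and it held broad shared regions as well. Of its 803 regions with a peak in every list, 29 (3.61%, interval 2.53 to 5.14) were at least 4000 bp wide, against 2.28% (interval 2.13 to 2.45) on chromosomes 1 to 19. The chromosome X interval overlapped those of all single autosomes except chromosomes 3, 10 and 13, with 3.02% (interval 2.42 to 3.75) on chromosome 11. The median width of the 29 regions was 4577 bp, and the median span was 3943 bp in B6-TgWT, 4100 bp in B6-TgYF and 4434 bp in B6. A list's own span reached 4000 bp in 11 of them for B6-TgWT, in 18 for B6-TgYF and in 27 for B6. The widest was chrX:90529678-90536641, with spans of 5462 bp in B6-TgWT, 6804 bp in B6-TgYF and 6964 bp in B6. The median fold enrichment of the 29 was 13.90 in B6-TgWT, 15.83 in B6-TgYF and 22.57 in B6, against 19.83, 23.4 and 26.15 for the 799 broad regions of chromosomes 1 to 19.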

How the results depend on the processing

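Of the alternative values for 12 results, 79 stayed within the interval of the value or 1.5 times the count, 46 did not, and 0 changed direction. Only the span ratios and percentile differences between lines have a direction that could change, and the other results have none. Leaving out a list was chosen after seeing the data. No paired analysis was possible because the libraries of a line share 1 list, so leaving out replicates was not run, nor were gene windows. Unknown depth limits spans and breaks. The cause was not tested, but stricter or looser widths and fewer peaks or lists change the members by construction.

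Requiring 3000 bp gave 2799 regions, median spans of 3170 (B6-TgWT), 3257 (B6-TgYF) and 3442 bp (B6), 77.1% unbroken in every list, a median percentile of 86.5, span ratios to B6 of 0.934 (B6-TgWT) and 0.962 (B6-TgYF), summits within 200 bp in 76.3% and 13.1 kb to the nearest shared region. Requiring 5000 bp gave 294 regions, spans of 5216, 5354 and 5613.5 bp, 53.7% unbroken, a percentile of 84.4, ratios of 0.954 and 0.981, a percentile difference of -3.86 for B6-TgYF minus B6 and 7.51 kb. Requiring 4000 bp in every list gave 469 regions, spans of 4704, 4881 and 5029 bp, 58.6% unbroken, ratios of 0.964 and 0.984 and 8.45 kb.

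Joining peaks up to 500 bp apart gave 1180 regions, a count within 1.5 times the main one, spans of 4266.5 bp in B6-TgWT and 4661 bp in B6, 38.5% unbroken and a percentile of 83.8. With the strongest 50% of each list, the B6-TgWT span was 4107 bp, 79.0% were unbroken, the B6-TgWT ratio was 0.933 and the nearest shared region lay 23.2 kb away. Ranking by −log10 q moved the percentile to 84.2. Without the B6-TgWT list 77.8% were unbroken and 83.8% had near summits, and without B6-TgYF 71.0% and 80.6%. Without B6 the spans were 4366 bp in B6-TgWT and 4483 bp in B6-TgYF, with 74.3% unbroken, a percentile of 83.8 and near summits in 78.4%.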

Other observations

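The 2 regions of at least 4000 bp that not every list held lay close together on chromosome 18. The B6-TgWT list alone had a peak of 6303 bp at chr18:9488617-9494919, with a fold enrichment of 11.06, and one of 4130 bp at chr18:9502831-9506960, with a fold enrichment of 10.95. Both ranked near percentile 69 of that list, at 69.0 and 68.7, and neither of the other lists had a peak overlapping them.

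Regions of the B6-TgWT list alone lay near broad domains about as often as near others, with overlapping intervals. One lay within 10 kb of 76 members (9.51%, interval 7.67 to 11.7), of 10.1% of the shared regions of 3000 to under 4000 bp and of 9.06% of all other shared regions. Regions of the B6 list alone lay within 10 kb of 119 members (14.9%, interval 12.6 to 17.5), of 12.7% and of 12.6%.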
